A study of Mus musculus with 27 samples.

Results

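The Slc25 family comprises the carrier proteins of the mitochondrial inner membrane. Its members were taken as all genes on the array whose annotated symbol is Slc25a followed by a number, with 1 probe set per gene, and this gave 44 of the 18193 genes tested. Each gene was read from the probe set that carries a single gene symbol and has the highest mean over the 27 arrays. The 44 members had 93 such probe sets in all, and 23 members had more than 1. All 44 kept the same symbol in the RefSeq gene table.

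The inner membrane is nearly impermeable to charged metabolites, and Slc25 carriers let named substrates cross it, mostly as an exchange of one for another. They supply the ATP synthase with ADP and phosphate, export citrate for lipid synthesis, run the malate-aspartate shuttle, take in acylcarnitines for fatty acid oxidation, and bring in iron, glycine and cofactors. The carriers are made in the cytosol and are inserted through the TOM complex of the outer and the TIM complexes of the inner membrane. The colonic epithelium depends on mitochondrial oxidation of butyrate, a fatty acid made by gut bacteria.

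RNA was measured in full-thickness mouse colon, on 1 Affymetrix array per sample, in 9 groups of 3 arrays. Each age of 7, 9 or 12 weeks had 3 kinds of mice. Il10-/- mice were kept either conventionally or under specific pathogen free (SPF) conditions, and wild-type mice were kept conventionally. Il10 encodes an anti-inflammatory cytokine, and its loss is used as a colitis model when gut microbes are present. The code CC of the conventional knockouts was assigned by elimination, because the other codes spell out SPF and WT. No SPF wild types were used here, so SPF knockouts differed from wild types in genotype and housing together. The sources used here do not give strain, sex or the knockout allele. The submitters chose the 3 replicates of each group on colon length and damage, and the labels do not say whether animals were pooled. The p-values therefore measure the spread among selected samples.

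The Il10 probe set gave 4.66 to 7.09 in the 18 arrays labelled knockout, against 3.51 to 3.83 in the 9 labelled wild type, so the signal of the targeted gene was higher, not lower, in every array labelled knockout. Neither the deleted part of the gene nor the place of the probes in it is given in the sources used, so this signal does not check the labels, and every direction below rests on the labels alone.

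The arrays had medians of 4.92 to 4.99 on the log2 scale, and rank correlations between arrays ran from 0.953 to 0.993. The colonocyte marker list averaged 10.86 to 12.18 and the smooth muscle list 9.26 to 11.31 in single arrays, so markers of both epithelium and muscle were measured in every array. Among SPF knockouts, replicate 2 at 12 weeks averaged 7.51 over 15 macrophage markers, against 8.17 and 8.76 in replicates 1 and 3, and 10.61 over 14 smooth muscle markers, against 9.58 and 9.26. SPF replicate 3 at 9 weeks had the lowest smooth muscle mean of its group, 10.15 beside 10.90 and 10.66, and the highest neutrophil mean, 5.33 beside 3.64 and 3.82 (S100a8, a neutrophil gene, was at 9.66 beside 3.84 and 4.63). Wild-type replicate 2 at 12 weeks had the largest actin 3'-minus-5' difference, 0.95, and wild-type replicate 1 at 7 weeks had an acinar pancreas mean of 8.11 beside 5.84 and 5.52. Calls lost without one of these arrays are named with the results. In bulk tissue, fewer cells of a type and less RNA per cell cannot be told apart.

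Promoters are shown for 4 of the 8 members called both in conventional knockouts at 9 weeks and in SPF knockouts at 12 weeks, chosen after their values were seen. Slc25a1 and Slc25a28 were higher in knockouts, and Slc25a36 and Slc25a16 were lower. Each window runs from 250 bases before the annotated start to 50 bases after it, 300 bases in all, read 5′ to 3′ on the gene's strand from RefSeq (GRCm38.p6). They lie at chr16:17928170-17928469 (minus strand), chr19:43674832-43675131 (minus), chr9:97110992-97111291 (minus) and chr10:62920383-62920682 (plus) for Slc25a1, Slc25a28, Slc25a36 and Slc25a16 in that order. Capitals mark matches to the motifs named after the sequences.
Slc25a1: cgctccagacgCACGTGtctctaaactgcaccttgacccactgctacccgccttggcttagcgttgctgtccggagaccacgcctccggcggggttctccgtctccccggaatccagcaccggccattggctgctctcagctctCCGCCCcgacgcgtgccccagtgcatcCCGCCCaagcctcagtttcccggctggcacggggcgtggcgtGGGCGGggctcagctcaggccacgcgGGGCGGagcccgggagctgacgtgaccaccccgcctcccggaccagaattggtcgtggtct
Slc25a28: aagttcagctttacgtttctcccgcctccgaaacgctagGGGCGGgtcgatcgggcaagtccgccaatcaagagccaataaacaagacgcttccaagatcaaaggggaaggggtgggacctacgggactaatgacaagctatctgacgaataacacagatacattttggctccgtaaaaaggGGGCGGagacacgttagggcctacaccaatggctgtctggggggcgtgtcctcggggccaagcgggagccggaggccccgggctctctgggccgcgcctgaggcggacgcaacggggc
Slc25a36: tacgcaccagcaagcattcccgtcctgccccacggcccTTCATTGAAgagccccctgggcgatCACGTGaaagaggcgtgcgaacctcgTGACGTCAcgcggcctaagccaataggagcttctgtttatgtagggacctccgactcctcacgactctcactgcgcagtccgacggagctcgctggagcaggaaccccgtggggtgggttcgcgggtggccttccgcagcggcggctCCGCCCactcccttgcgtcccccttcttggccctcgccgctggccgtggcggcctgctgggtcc
Slc25a16: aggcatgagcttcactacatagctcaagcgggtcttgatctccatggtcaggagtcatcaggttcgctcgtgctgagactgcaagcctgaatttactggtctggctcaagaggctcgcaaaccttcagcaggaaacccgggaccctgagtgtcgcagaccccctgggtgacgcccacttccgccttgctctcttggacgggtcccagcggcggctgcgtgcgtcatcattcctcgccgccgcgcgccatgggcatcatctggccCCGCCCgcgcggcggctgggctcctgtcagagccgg

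The windows were searched on both strands for 8 motifs, and 34 of the 44 members had at least 1 window. The Slc25a36 window holds a cAMP response element TGACGTCA from base -161 to -154, an E-box CACGTG from -187 to -182, an interferon-type GAS element TTCNNNGAA from -212 to -204, and a GC box GGGCGG. Of all 32851 mouse windows of the same length, 1.79% hold the cAMP response element, 7.15% the E-box, 8.30% the GAS element and 35.7% the GC box. The Slc25a1 window holds an E-box from -239 to -234 and 4 GC boxes. Slc25a28 has 2 GC boxes, at -211 and -68, and Slc25a16 has 1 at base 14 after the start. Of 34 members with a window, 29 had a GC box, 7 an E-box, and 2 each a cAMP response element (Slc25a25 and Slc25a36), a GAS element (Slc25a36 and Slc25a54) and the core of the interferon-stimulated response element (Slc25a15 and Slc25a22). That core, GAAA repeated with 2 free bases between, is in 3.44% of all windows. These counts are of members, while the shares are of windows. Of the 43 member windows, 37 held a GC box and 8 an E-box. The cAMP response element, the GAS element and the interferon-stimulated core were in 2 windows each. The NRF1 element (0.971% of all windows), the kappa B element (0.155%) and the direct repeat of AGGTCA with 1 free base between (0.0396%) were in 0 of the 43 member windows. No motif searched overlapped another in the windows shown, and a match describes letters only.

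Each difference is between group means on the log2 scale, ± SE, from 1 limma model of all 27 arrays (n = 3 arrays per group), so that a value of 1 is a 2-fold change. A call means that limma's p, adjusted by Benjamini-Hochberg over the 18193 genes, was under 0.05. Probe sets differ in how strongly they bind their target, so levels of different members are not set against each other. Differences and spans are those of each member's own probe set. By signal, 29 members lay above the median gene's 6.19. The 5 members below the 20th percentile of genes were Slc25a31, Slc25a2, Slc25a18, Slc25a54 and Slc25a41, and their dim signal limits what these arrays show of them.

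The family held both steady and variable members. For Slc25a3, the phosphate carrier, the 9 group means spanned 0.18 on the log2 scale, and its 27 arrays lay between 12.38 and 12.80. For Slc25a5, the ADP/ATP carrier of most dividing tissues, the group means spanned 0.29. Spans over 1 on the log2 scale were those of Slc25a23 (1.55), Slc25a35 (1.35), Slc25a36 (1.18), Slc25a34 (1.18) and Slc25a28 (1.13). In 4 of these 5 the group mean at one extreme was that of SPF knockouts at 12 weeks as the lowest, and for Slc25a28 it was the highest.

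At 7 weeks no member was called in any comparison with limma. For conventional knockouts against wild types the count was 0 of 44 (2 at an unadjusted p under 0.05), where 0.506% of all genes were called and 11.0% had such an unadjusted p. For SPF knockouts against wild types the count was 0 of 44 (1 unadjusted), where 0.0550% of all genes were called and 5.06% passed unadjusted. Conventional against SPF knockouts also gave 0 of 44 (0 unadjusted), against 0.269% called and 5.32% unadjusted over all genes. The smallest adjusted p at this age was that of the carnitine carrier Slc25a20, 0.275. This gene had 10.67, 10.95 and 10.54 in conventional knockouts, against 11.12, 11.29 and 11.21 in wild types, and the groups did not overlap. Without wild-type replicate 1, whose acinar markers stood apart, the counts of both comparisons with wild types at 7 weeks were also 0.

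At 9 weeks conventional knockouts differed from wild types in 11 of 44 members, 6 higher and 5 lower, which is 25% of the family where 24.0% of all genes were called (14.2% higher and 9.86% lower). The share of members was thus near that of the array. The citrate carrier Slc25a1, the iron carrier Slc25a28, the glycine carrier Slc25a38, the glutamate carriers Slc25a22 and Slc25a13 and the folate and FAD carrier Slc25a32 were higher. The pyrimidine nucleotide carrier Slc25a36, the uncoupling protein relative Slc25a27, the glutathione-linked Slc25a40, the aspartate/glutamate carrier Slc25a12 and the coenzyme A-linked Slc25a16 were lower. In all 11 the 3 arrays of one group lay beyond those of the other, which held for 21 of 44 members and 42.5% of all genes.

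By 12 weeks the counts of the knockout kinds lay far apart. SPF knockouts differed from wild types in 18 of 44 members, 6 higher and 12 lower, or 40.9% of the family where 34.8% of all genes were called (18.2% higher and 16.6% lower). Conventional knockouts differed in 1 of 44, Slc25a16, lower, where 0.451% of all genes were called and 0.187% were lower. At an unadjusted p under 0.05 there were 8 members and 15.7% of all genes. In between, at 9 weeks, SPF knockouts differed from wild types in 4 of 44 members, all lower, or 9.09% where 11.8% of all genes were called and 4.43% were lower. These were Slc25a36, Slc25a27, Slc25a12 and Slc25a16. Without SPF replicate 3, the array high in neutrophil genes, all 4 calls were lost, with differences of -0.76, -0.45, -0.52 and -0.29. The part of the neutrophil markers in these differences was not tested.

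**Figure D1:**
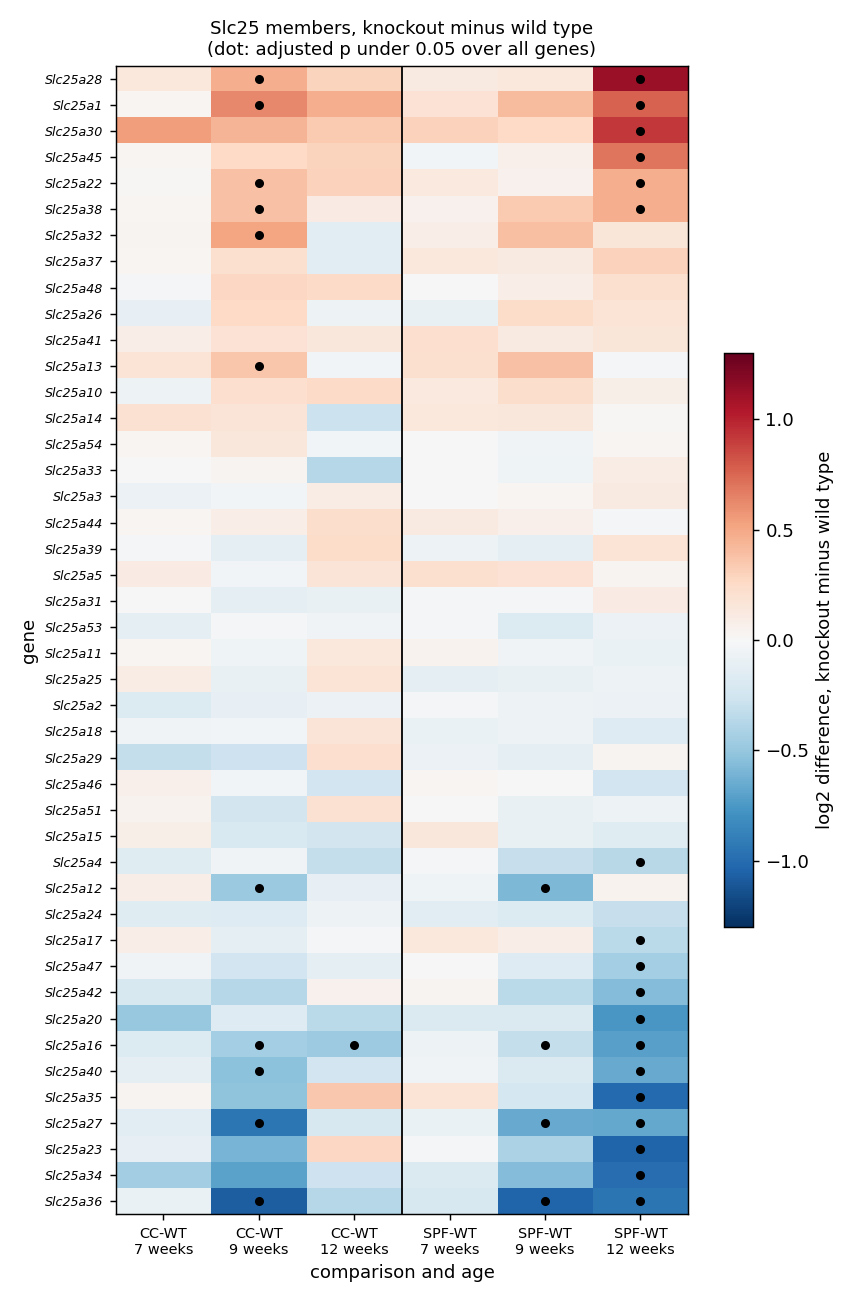
Log2 difference of knockouts from wild types (colour) for the 44 Slc25 members (rows) in conventional (CC, left 3 columns) and SPF knockouts (right 3 columns) at 7, 9 and 12 weeks, with dots at adjusted p under 0.05. Dots are absent at 7 weeks and number 11 and 1 in conventional knockouts at 9 and 12 weeks, and 4 and 18 in SPF knockouts.

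Conventional knockouts at 9 weeks and SPF knockouts at 12 weeks were compared with wild types of their own age, so these comparisons share no array. Among members called higher, 4 were in both lists (66.7% of the 6 at 9 weeks and 66.7% of the 6 at 12 weeks), namely Slc25a1, Slc25a22, Slc25a28 and Slc25a38. Of those called lower, 4 were in both (80% of 5 and 33.3% of 12), namely Slc25a16, Slc25a27, Slc25a36 and Slc25a40. None was called in opposite directions. Over all genes, 77.8% of those called higher and 73.8% of those called lower at 9 weeks were called the same way in SPF knockouts at 12 weeks. Counted from the 12-week side, these were 2008 of 3305 genes called higher and 1323 of 3024 called lower.

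**Figure D2:**
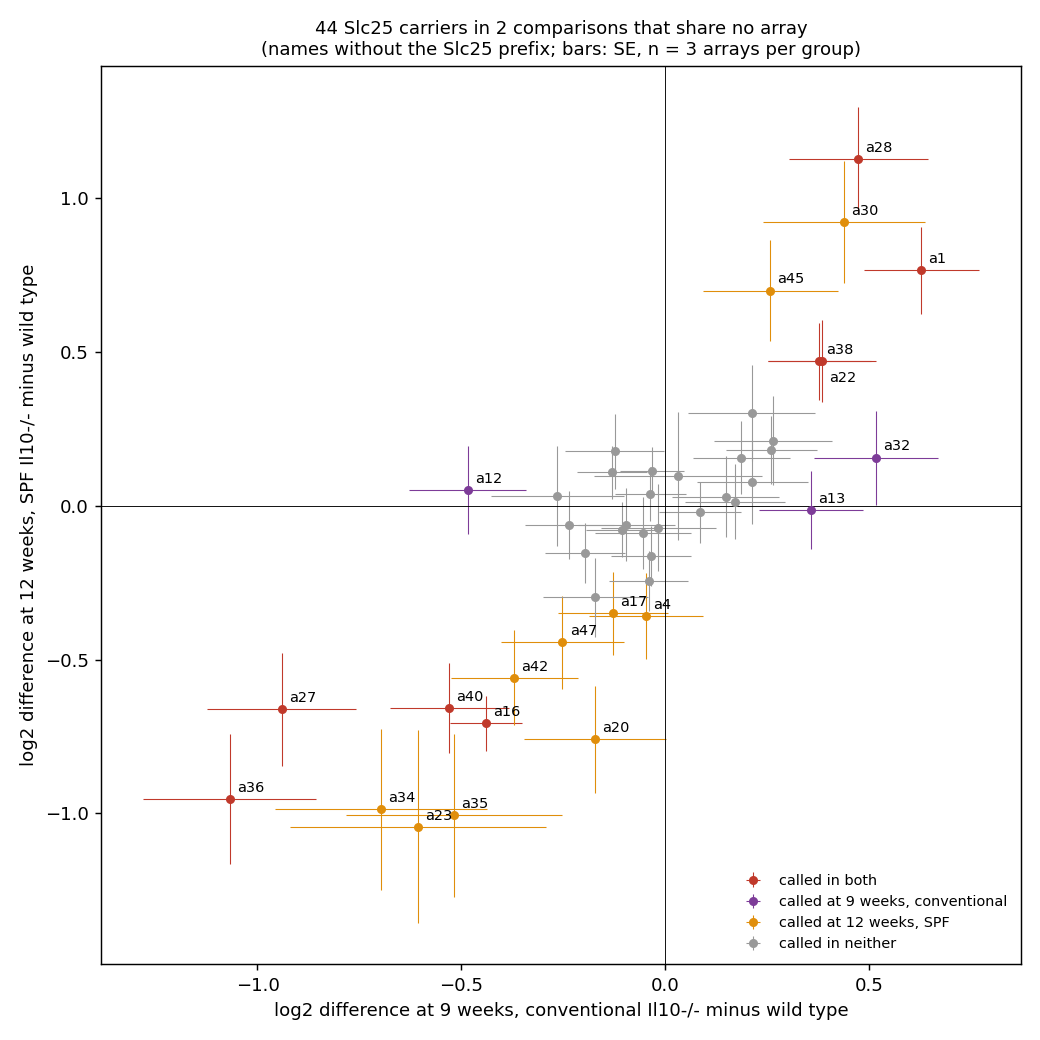
Each point is 1 of 44 members, with its log2 difference from wild types in conventional knockouts at 9 weeks on the x axis and in SPF knockouts at 12 weeks on the y axis (bars are SE, n = 3 arrays per group). The 8 members called in both lie in the upper right (Slc25a1, Slc25a22, Slc25a28, Slc25a38) and lower left (Slc25a16, Slc25a27, Slc25a36, Slc25a40), and Slc25a12 and Slc25a13, called at 9 weeks, lie near 0 on the y axis.

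Of the 3 carriers of di- and tricarboxylates, 1 was called higher in both comparisons, where 14.2% and 18.2% of all genes were called higher. Slc25a1, which exports citrate, the source of cytosolic acetyl-CoA, had 9.65, 9.55 and 9.42 in conventional knockouts at 9 weeks, against 8.72, 9.03 and 8.98 in wild types. Every knockout array lay above every wild-type array, with a difference of 0.63 ± 0.14 (limma, adjusted p = 0.00325). SPF knockouts at 12 weeks had 9.63, 9.29 and 9.36, against 8.97, 8.31 and 8.70 in wild types, and the difference was 0.77 ± 0.14 (adjusted p = 0.000362). The groups again did not overlap. SPF knockouts at 9 weeks were at 0.41 ± 0.14 (adjusted p = 0.0582) and conventional knockouts at 12 weeks at 0.48 ± 0.14 (adjusted p = 0.111). The dicarboxylate carrier Slc25a10, which exchanges malate or succinate for phosphate, was not called, at 0.21 ± 0.14 for conventional knockouts at 9 weeks and 0.08 ± 0.14 for SPF knockouts at 12 weeks.

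Enzymes on and beside the path from exported citrate to lipids were a list of 12 genes with 10 measured. Of these, 4 were called higher and 1 lower in conventional knockouts at 9 weeks (median 0.38, all genes 0.00023). SPF knockouts at 12 weeks had 2 higher and 1 lower (median 0.08, all genes 0.02). In the same comparisons 14.2% of all genes were called higher and 9.86% lower, and 18.2% and 16.6%. The one called lower in both was Acly, the enzyme that cleaves citrate to acetyl-CoA, at -0.56 ± 0.15 and -0.46 ± 0.15. Acaca, the acetyl-CoA carboxylase, was at 0.39 ± 0.11 and 0.30 ± 0.11, and the fatty acid synthase Fasn was at 0.49 ± 0.15 in SPF knockouts at 12 weeks. The carrier and the enzyme that takes its product thus moved in opposite directions in both comparisons.

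Carriers of ATP, ADP and phosphate had 0 of 9 members called in conventional knockouts at 9 weeks, where 24.0% of all genes were called. In SPF knockouts at 12 weeks 2 of 9 were called, both lower, where 16.6% of all genes were called lower. Slc25a3, which brings in the phosphate for ATP synthesis, had 12.61, 12.69 and 12.71 in conventional knockouts at 9 weeks, against 12.69, 12.73 and 12.69 in wild types (-0.03 ± 0.08, 95% interval -0.20 to 0.13). The SPF knockouts at 12 weeks were at 0.11 ± 0.08 (-0.05 to 0.28). Slc25a5 was at -0.04 ± 0.09 (-0.22 to 0.14) and 0.04 ± 0.09 (-0.14 to 0.22). The other probe sets of Slc25a5 did not all give the same picture: of its 8, the 2 with means of 9.59 and 9.65 were lower in conventional knockouts at 9 weeks, at -0.74 ± 0.22 and -0.67 ± 0.19. Near-identical copies of Slc25a5 can share probes, so this gene is uncertain.

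Slc25a4, the ADP/ATP carrier of heart and muscle, had 9.83, 9.68 and 9.83 in SPF knockouts at 12 weeks, against 10.05, 10.47 and 9.90 in wild types. The groups did not overlap, and the difference of -0.36 ± 0.14 was at the threshold (adjusted p = 0.0499). Without wild-type replicate 2, at 10.47 and with the actin difference that stood apart, it was -0.19 and not called (adjusted p = 0.309). In conventional knockouts at 9 weeks it was at -0.05 ± 0.14. Slc25a23, which exchanges ATP-magnesium for phosphate under control of calcium, had 4.93, 5.87 and 4.12 in SPF knockouts at 12 weeks, against 6.30, 6.30 and 5.45 in wild types (-1.04 ± 0.31, adjusted p = 0.0126). Here the groups overlapped, since SPF replicate 2 was above wild-type replicate 3, and without SPF replicate 3 the difference was -0.62 and the call was lost (adjusted p = 0.129). It was also lost without wild-type replicate 2 (-0.90, adjusted p = 0.0599) and replicate 1. The 15 subunits of the ATP synthase, measured beside them, had 1 called higher in conventional knockouts at 9 weeks (Atp5g1, 0.46 ± 0.13) and 2 lower in SPF knockouts at 12 weeks (Atp5h, -0.25 ± 0.08, and Atp5l, -0.33 ± 0.12). By comparison, 14.2% of all genes were called higher in the former and 16.6% lower in the latter.

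The 4 aspartate and glutamate carriers split by gene. Slc25a22, a glutamate carrier, had 7.84, 7.79 and 8.04 in conventional knockouts at 9 weeks, against 7.41, 7.57 and 7.54 in wild types (0.38 ± 0.13, adjusted p = 0.0379), and was at 0.47 ± 0.13 in SPF knockouts at 12 weeks (adjusted p = 0.00834). The 2 aspartate/glutamate exchangers of the malate-aspartate shuttle went opposite ways at 9 weeks. Slc25a12 (aralar) had 7.54, 8.05 and 7.75 in conventional knockouts, against 8.50, 8.24 and 8.05 in wild types (-0.48 ± 0.14, adjusted p = 0.0172), and with the mean of its probe sets it was at -0.29 and not called (adjusted p = 0.0578). Slc25a13 (citrin) had 7.94, 7.84 and 7.71, against 7.46, 7.28 and 7.68 in wild types (0.36 ± 0.13, adjusted p = 0.0435). Citrin is the form known from liver, and aralar that of brain and muscle. Slc25a12 was also lower in SPF knockouts at 9 weeks (-0.58 ± 0.14), but at 12 weeks the SPF arrays, 7.90 to 8.40, lay on both sides of the wild types (0.05 ± 0.14).

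Citrate cycle and shuttle enzymes (23 measured) had 3 called higher in conventional knockouts at 9 weeks, and 5 higher and 8 lower in SPF knockouts at 12 weeks. Over all genes, 14.2% were called higher in the first comparison, and 18.2% higher and 16.6% lower in the second. The genes named next were higher, while most calls of this list at 12 weeks were lower. The aspartate transaminases of the shuttle were among the higher ones in both comparisons, Got1 at 0.79 ± 0.16 and 0.75 ± 0.16 and Got2 at 0.31 ± 0.11 and 0.57 ± 0.11. Dlst, a subunit of the oxoglutarate dehydrogenase complex, was at 0.38 ± 0.10 and 0.39 ± 0.10.

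Haem synthesis in mitochondria uses iron, brought in by 2 carriers of the family, and glycine. Slc25a28, mitoferrin 2, had 8.39, 8.10 and 8.05 in conventional knockouts at 9 weeks, against 7.88, 7.82 and 7.42 in wild types (0.47 ± 0.17, adjusted p = 0.0463). SPF knockouts at 12 weeks had 8.66, 7.94 and 8.59, against 7.25, 7.22 and 7.35 in wild types. All 3 lay above every wild-type array, and the difference was 1.13 ± 0.17 (adjusted p = 8.16e-05). Slc25a37, mitoferrin 1, which serves red cell precursors, was not called against wild types: it had 7.87, 6.99 and 7.74 in SPF knockouts at 12 weeks, against 7.19, 7.22 and 7.30 (0.30 ± 0.16, adjusted p = 0.144). SPF replicate 2 was the lowest of these 6 arrays, and SPF replicates 1 and 3 the highest.

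Slc25a38, which brings in the glycine that starts haem synthesis, had 7.26, 7.47 and 7.08 in conventional knockouts at 9 weeks, against 6.84, 6.88 and 6.97 in wild types (0.38 ± 0.13, adjusted p = 0.0313). SPF knockouts at 12 weeks differed by 0.47 ± 0.13 (adjusted p = 0.00583). Of 16 measured genes of haem and iron-sulphur synthesis, 4 were called higher and 2 lower in conventional knockouts at 9 weeks, and 5 higher and 4 lower in SPF knockouts at 12 weeks. All genes together had 14.2% called higher and 9.86% lower at 9 weeks, and 18.2% and 16.6% at 12 weeks. The transferrin receptor gene Tfrc (1.57 ± 0.28 and 0.95 ± 0.28) and the first enzyme of the pathway, Alas1 (0.96 ± 0.19 and 0.77 ± 0.19), were higher in both. Alad, the next enzyme, was also higher in both (0.44 ± 0.12 and 0.90 ± 0.12). Cpox, which acts further along, was at 0.16 ± 0.18 in conventional knockouts at 9 weeks and was higher in SPF knockouts at 12 weeks (0.92 ± 0.18). The decarboxylase Urod was lower in both, at -0.58 ± 0.12 and -0.59 ± 0.12.

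Slc25a40, a close relative of the glutathione carrier Slc25a39, had 7.68, 7.50 and 7.87 in conventional knockouts at 9 weeks, against 8.24, 8.23 and 8.16 in wild types (-0.53 ± 0.15, adjusted p = 0.0114). SPF knockouts at 12 weeks had 7.82, 7.93 and 7.47, against 8.59, 8.42 and 8.18 (-0.66 ± 0.15, adjusted p = 0.00145). Neither pair of groups overlapped.

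The carnitine/acylcarnitine carrier Slc25a20, which takes long-chain fatty acids into the matrix, was called in 1 comparison with wild types. SPF knockouts at 12 weeks had 10.55, 10.64 and 10.16, against 11.12, 11.44 and 11.06 in wild types, with no overlap (-0.76 ± 0.17, adjusted p = 0.00193). Conventional knockouts at 9 weeks had 10.48, 10.91 and 11.35, which spanned the wild types at 11.21, 10.94 and 11.10 (-0.17 ± 0.17, adjusted p = 0.526). The second probe set of Slc25a20 was at -0.43 ± 0.19 in SPF knockouts at 12 weeks (adjusted p = 0.091 over all probe sets).

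Enzymes of fatty acid oxidation and the carnitine system (15 of 18 measured) followed the same split. At 12 weeks 10 were called lower and 1 higher in SPF knockouts (median -0.47), and in conventional knockouts at 9 weeks 1 was lower and 1 higher (median -0.22). The shares of all genes were 16.6% lower and 18.2% higher at 12 weeks, and 9.86% lower and 14.2% higher at 9 weeks. Lower at 12 weeks were the medium-chain dehydrogenase Acadm (-1.01 ± 0.17) and Hadh (-1.08 ± 0.19), which oxidises the hydroxyacyl intermediate. Acadl, the long-chain dehydrogenase, was the one called higher, at 0.52 ± 0.10. Colonocyte markers stood beside this with 5 of 15 called lower and 1 higher at 12 weeks, and their means ran from 10.86 to 12.01 in SPF knockouts, against 11.76 to 12.07 in wild types. Their part in the result was not tested.

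Among 8 carriers of nucleotides and cofactors, 1 was called higher and 2 lower in conventional knockouts at 9 weeks. In SPF knockouts at 12 weeks 4 were called lower. Of all genes, 14.2% were called higher and 9.86% lower in the first comparison, and 16.6% lower in the second. Slc25a36, which carries pyrimidine nucleotides for mitochondrial DNA and RNA, had 8.44, 8.67 and 8.80 in conventional knockouts at 9 weeks, against 9.93, 9.68 and 9.50 in wild types. The difference was -1.07 ± 0.21 (adjusted p = 0.00131). SPF knockouts had 8.96, 8.93 and 8.10 at 9 weeks (-1.04 ± 0.21, adjusted p = 0.00437). At 12 weeks they had 8.39, 8.83 and 8.35, against 9.10, 9.61 and 9.72 in wild types (-0.95 ± 0.21, adjusted p = 0.00151). The knockout arrays lay below the wild-type arrays in each case, and all 3 probe sets of Slc25a36 were lower, by -1.24, -1.07 and -1.23 in conventional knockouts at 9 weeks and by -1.20, -0.95 and -1.05 in SPF knockouts at 12 weeks. Without SPF replicate 3 at 9 weeks the SPF difference at that age was -0.76 (adjusted p = 0.0561).

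Slc25a16, which has been linked to coenzyme A import, was called in every comparison of knockouts with wild types at 9 and 12 weeks. At 9 weeks conventional knockouts had 7.76, 7.83 and 7.92 and SPF knockouts 7.93, 8.05 and 7.92, against 8.34, 8.19 and 8.30 in wild types. Differences were -0.44 ± 0.09 (adjusted p = 0.00145) and -0.31 ± 0.09 (adjusted p = 0.0277). At 12 weeks conventional knockouts had 8.12, 8.07 and 8.15 and SPF knockouts 7.90, 7.96 and 7.79, against 8.52, 8.82 and 8.43 in wild types. Differences were -0.48 ± 0.09 (adjusted p = 0.0236) and -0.71 ± 0.09 (adjusted p = 1.43e-05). None of these groups overlapped with wild types. The 12-week call of conventional knockouts was lost without any 1 of their own replicates (adjusted p = 0.111, 0.0927 and 0.073 without replicates 1, 2 and 3) and without wild-type replicate 2, whose actin ratio stood apart (-0.36, adjusted p = 0.172).

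Slc25a42, a coenzyme A carrier, had 5.62, 5.80 and 5.05 in SPF knockouts at 12 weeks, against 6.25, 5.95 and 5.95 in wild types (-0.56 ± 0.15, adjusted p = 0.0074). Slc25a17, the family member of the peroxisome, was at -0.35 ± 0.13 (adjusted p = 0.0475). Each has a second, dimmer probe set with the opposite sign, 0.26 ± 0.10 and 0.12 ± 0.14, and with the mean of the probe sets they were at -0.15 and -0.11 and lost their calls. Slc25a42 was at -0.34 without SPF replicate 3 (adjusted p = 0.0832), and Slc25a17 was not called without wild-type replicate 1 (-0.23) or 2 (-0.39). Slc25a32, the folate and FAD carrier, had 6.53, 6.38 and 6.24 in conventional knockouts at 9 weeks, against 6.02, 5.97 and 5.60 in wild types (0.52 ± 0.15, adjusted p = 0.0167). One of its other probe sets was at -0.16 ± 0.14, and with the mean of its probe sets Slc25a32 was at 0.14 and lost the call (adjusted p = 0.29). Slc25a32 in SPF knockouts at 12 weeks was at 0.16 ± 0.15 and was not called, while a dimmer probe set was at -0.52 ± 0.12.

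Mitochondrial one-carbon enzymes (10 of 12 measured), which use folate in the matrix, had 3 called higher and 1 lower in conventional knockouts at 9 weeks, and 4 higher and 1 lower in SPF knockouts at 12 weeks. Beside these stood 14.2% of all genes called higher and 9.86% lower at 9 weeks, and 18.2% and 16.6% at 12 weeks. The serine hydroxymethyltransferase Shmt2 was at 1.50 ± 0.34 and 2.05 ± 0.34, and Mthfd2, the next enzyme, at 1.68 ± 0.42 and 2.14 ± 0.42.

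Relatives of the uncoupling proteins split. Slc25a27, best known from brain, had 5.22, 5.55 and 5.49 in conventional knockouts at 9 weeks, against 6.59, 6.40 and 6.09 in wild types (-0.94 ± 0.18, adjusted p = 0.00114). Its values in SPF knockouts at 12 weeks were 5.45, 5.56 and 5.17, against 6.26, 5.83 and 6.08 (-0.66 ± 0.18, adjusted p = 0.00716), again with no overlap. Its probe sets disagreed: another, with a mean of 4.23, was at 0.38 ± 0.13 in SPF knockouts at 12 weeks, and with the mean of its probe sets the difference there was -0.05 and the call was lost. That mean also cut the 9-week differences, which kept their calls, to -0.30 in conventional and -0.22 in SPF knockouts, and the same second probe set was at 0.03 ± 0.13 in conventional knockouts at 9 weeks. Slc25a30, known from kidney, had 7.59, 6.70 and 7.25 in SPF knockouts at 12 weeks, against 6.33, 5.91 and 6.54 in wild types (0.92 ± 0.20, adjusted p = 0.00115), and 4 of its 5 probe sets were higher by 0.53 to 0.92. The uncoupling proteins outside the family symbol, Ucp1 and Ucp3, were at 0.14 ± 0.10 and 0.21 ± 0.12 there and were not called.

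Of 7 members without a settled role, 1 was called higher and 3 lower in SPF knockouts at 12 weeks. Over all genes, 18.2% were called higher and 16.6% lower there. Conventional knockouts at 9 weeks had 0 of the 7 called, where 24.0% of all genes were called. Slc25a35 had 6.19, 6.77 and 5.19 in SPF knockouts at 12 weeks, against 7.45, 6.57 and 7.14 in wild types, an overlap through SPF replicate 2 (-1.01 ± 0.26, adjusted p = 0.00513). Slc25a34 had 7.03, 7.52 and 6.34, against 7.97, 8.10 and 7.78, without overlap (-0.99 ± 0.26, adjusted p = 0.00529). Without SPF replicate 3 these were -0.58 and -0.68 and lost their calls (adjusted p = 0.0569 and 0.0566). Slc25a45 had 6.38, 6.30 and 6.86, against 5.66, 5.77 and 6.01, and was higher (0.70 ± 0.17, adjusted p = 0.00243). Slc25a47, given to complete the count, was at -0.44 ± 0.15, and lost the call without SPF replicate 3 or wild-type replicate 1 or 2 (-0.41 without the last).

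**Figure D3:**
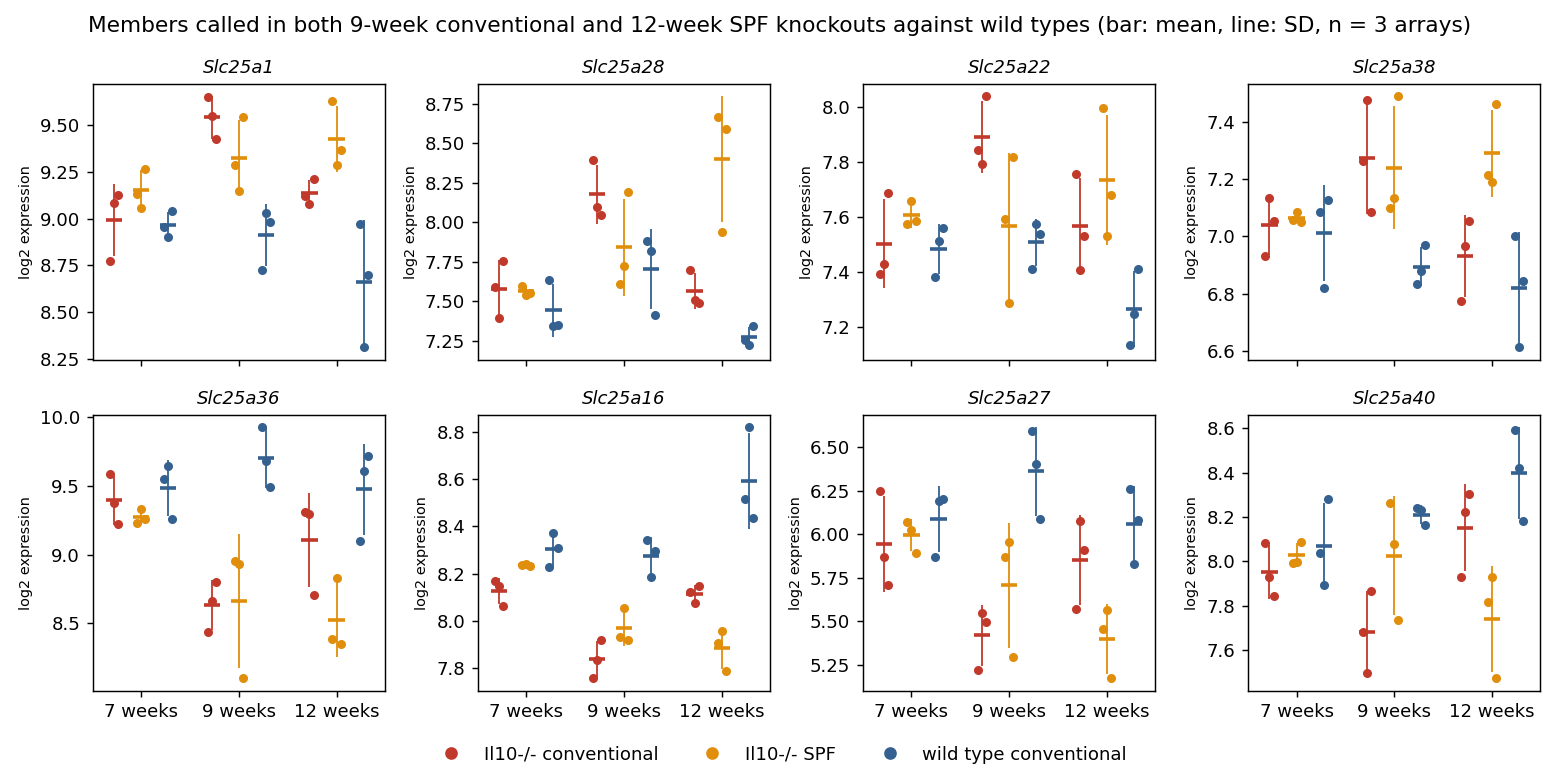
Log2 expression in each array (points), with group mean (bar) and SD (line, n = 3), for the 8 members called both in conventional knockouts at 9 weeks and in SPF knockouts at 12 weeks. Conventional knockouts lie beyond wild types at 9 weeks, as for Slc25a36 (-1.07), and SPF knockouts at 12 weeks, as for Slc25a28 (1.13), and a change of these differences with age was not shown by its own test.

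**Figure D4:**
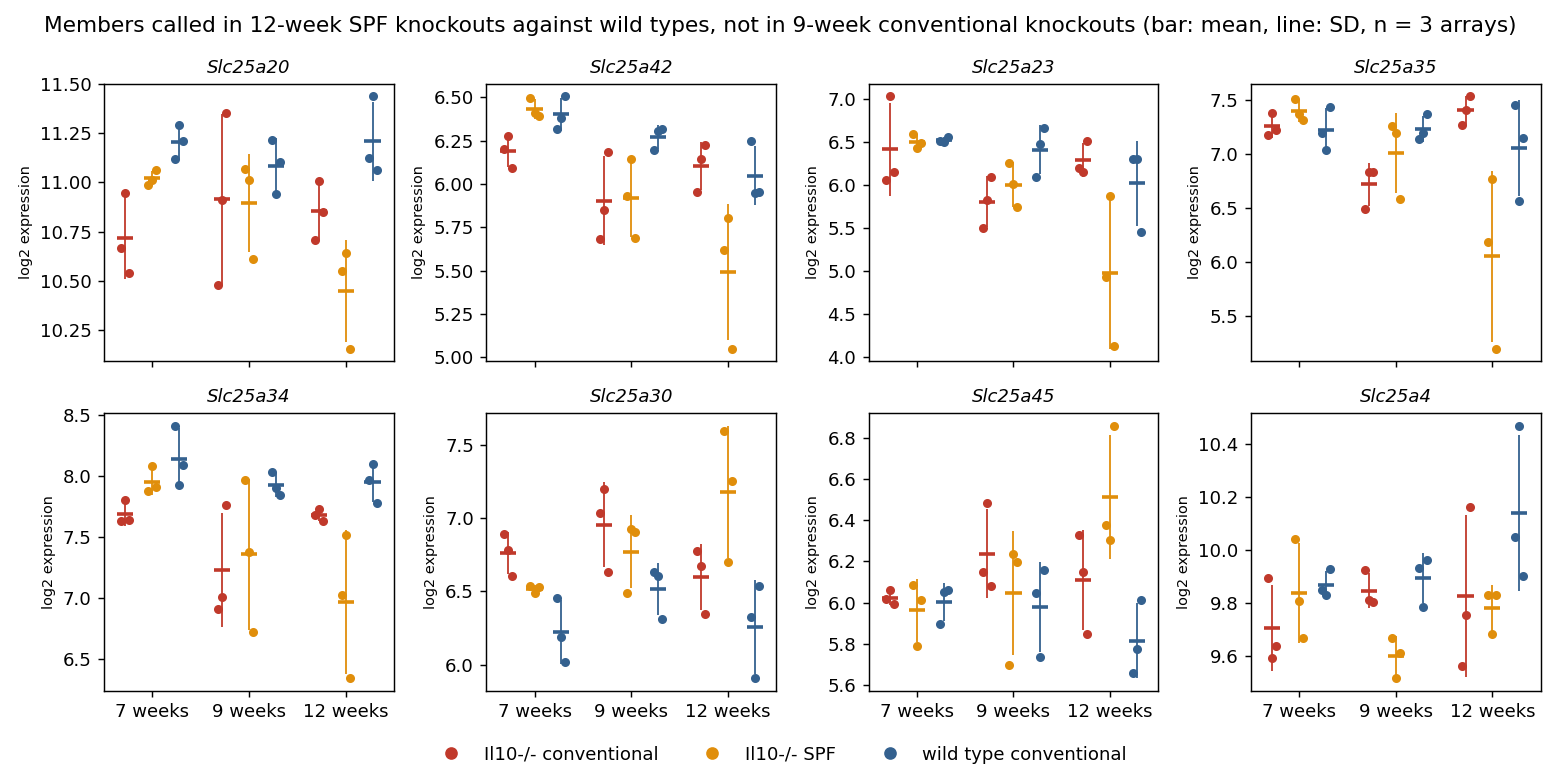
Log2 expression in each array (points), with group mean (bar) and SD (line, n = 3), for 8 members called in SPF knockouts at 12 weeks but not in conventional knockouts at 9 weeks. In Slc25a23 and Slc25a35, SPF replicate 2 at 12 weeks (5.87 and 6.77) lies within the range of the wild types, and replicate 3 (4.12 and 5.19) is the lowest array.

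The 2 kinds of knockouts were also set against each other. At 9 weeks 0 of 44 members were called with limma (3 at an unadjusted p under 0.05), where 0% of all genes were called and 8.07% passed unadjusted. At 12 weeks 11 of 44 were called, 7 higher and 4 lower in conventional knockouts, or 25% where 24.6% of all genes were called (11.1% higher and 13.6% lower). This comparison uses the same SPF arrays as that of SPF knockouts with wild types. Slc25a35 had 7.27, 7.40 and 7.53 in conventional knockouts, against 6.19, 6.77 and 5.19 in SPF knockouts (1.35 ± 0.26, adjusted p = 0.00241). Slc25a23 had 6.20, 6.15 and 6.51, against 4.93, 5.87 and 4.12 (1.31 ± 0.31, adjusted p = 0.00559). Slc25a28 had 7.70, 7.51 and 7.49, against 8.66, 7.94 and 8.59 (-0.83 ± 0.17, adjusted p = 0.0028). In these 3 the arrays did not overlap, which held for 31.1% of all genes.

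The other members called at 12 weeks between the knockouts were Slc25a34 (0.72 ± 0.26), Slc25a42 (0.62 ± 0.15), Slc25a36 (0.58 ± 0.21), Slc25a40 (0.41 ± 0.15) and the glutamate carrier Slc25a18 (0.33 ± 0.10), all higher in conventional knockouts. The dim Slc25a18 had 3.34, 3.04 and 3.32 in conventional knockouts, against 2.77, 3.06 and 2.89 in SPF knockouts, and these overlapped. Slc25a38 (-0.36 ± 0.13), Slc25a37 (-0.45 ± 0.16) and Slc25a30 (-0.58 ± 0.20) were lower there. Slc25a37, which was not called against wild types, had 7.02, 7.15 and 7.09 in conventional knockouts, against 7.87, 6.99 and 7.74 in SPF knockouts, so SPF replicate 2 lay below all 3. The count was 20 without SPF replicate 2, 4 without SPF replicate 1 and 2 without SPF replicate 3. It was 7, 5 and 6 without conventional replicates 1, 2 and 3, and 0 with only the 6 arrays compared. The shares of all genes called in these fits are not given here, so these counts describe nothing particular to the family. Slc25a28 and Slc25a35 were the members that kept the call in all 27 fits that left out 1 array. Slc25a23 and Slc25a42 lost it without SPF replicate 3 alone, while Slc25a36 kept it in 11 and Slc25a34 in 6 of the 27. Without SPF replicate 3, Slc25a34 was at 0.41 and Slc25a42 at 0.40, and with the mean of its probe sets Slc25a42 was at 0.19 and not called. Without SPF replicate 1, Slc25a30 was at -0.38 and Slc25a37 at -0.28, neither called, and without SPF replicate 2 Slc25a37 was at -0.72.

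Age was compared within each kind. In conventional knockouts, 4 of 44 members changed between 7 and 9 weeks (10.4% of all genes called, 5.34% higher and 5.10% lower): Slc25a28 (0.60 ± 0.17) and Slc25a1 (0.55 ± 0.14) were higher at 9 weeks, and Slc25a16 (-0.29 ± 0.09) and Slc25a36 (-0.76 ± 0.21) were lower. This count was 0 without conventional replicate 1 at 7 weeks, 0 without replicate 1 or 2 at 9 weeks, and 1 without replicate 2 at 7 weeks. From 9 to 12 weeks 1 of 44 changed (7.34% of genes called, 5.40% lower): Slc25a28 was at -0.61 ± 0.17 (adjusted p = 0.0337). Its call was lost without any 1 of the 12-week conventional replicates and without replicate 1 or 2 at 9 weeks.

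In SPF knockouts 0 of 44 members were called by limma between 7 and 9 weeks (5 unadjusted, against 0.726% of genes called and 15.2% unadjusted) and 0 between 9 and 12 weeks (8 unadjusted, against 0% and 18.9%). Without SPF replicate 2 at 12 weeks the second count was 11, and without SPF replicate 3 at 9 weeks it was 4. Wild types had 0 of 44 called from 7 to 9 weeks (0 unadjusted, against 0.00550% and 3.99%) and 0 from 9 to 12 weeks (8 unadjusted, against 0% and 12.7%). The change with age of the difference itself was tested too. It passed for 0 of 44 members for conventional knockouts from 7 to 9 weeks (7 unadjusted, against 2.01% and 18.7%) and from 9 to 12 weeks (9 unadjusted, against 1.82% and 21.6%), and for SPF knockouts from 9 to 12 weeks (11 unadjusted, against 0% and 13.3%). A change of the member differences between these ages was therefore not shown by limma, with the smallest adjusted p at 0.0798 for Slc25a36 from 7 to 9 weeks. The last count was 5 without SPF replicate 2 at 12 weeks.

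The calls against wild types differed in how much they depended on single arrays. In conventional knockouts at 9 weeks Slc25a1, Slc25a16, Slc25a27 and Slc25a36 were called in all 27 fits that left out 1 array, and the count of 11 was 5 without knockout replicate 1, 6 without knockout replicate 2 and 7 without wild-type replicate 2. Slc25a40 was called in 26 of the 27 (lost without knockout replicate 2), Slc25a12 and Slc25a32 in 25, Slc25a38 in 23, Slc25a22 in 21, Slc25a13 in 18 and Slc25a28 in 11. In SPF knockouts at 12 weeks 10 of 18 kept the call in all 27, namely Slc25a1, Slc25a16, Slc25a20, Slc25a27, Slc25a28, Slc25a30, Slc25a36, Slc25a38, Slc25a40 and Slc25a45. Slc25a22 (lost without SPF replicate 1), Slc25a34, Slc25a35 and Slc25a42 (each lost without SPF replicate 3) were called in 26, Slc25a23 and Slc25a47 in 24, Slc25a17 in 8 and Slc25a4 in 6. The count of 18 was 11 without SPF replicate 3, 20 without SPF replicate 2, and 4 with only the 6 arrays compared. In SPF knockouts at 9 weeks the count of 4 was 0 without SPF replicate 3 and 1 without wild-type replicate 1.

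The import machinery through which carriers reach the membrane had many members called higher. Of 14 TIM and TOM genes, 9 were called higher and 0 lower in conventional knockouts at 9 weeks (median 0.50), 7 and 0 in SPF knockouts at 9 weeks (median 0.43) and 9 and 0 in SPF knockouts at 12 weeks (median 0.37), with medians over all genes between -0.01 and 0.02. Of all genes, 14.2%, 7.41% and 18.2% were called higher in these comparisons. The translocase Timm22, which inserts carriers, was at 0.68 ± 0.11 in conventional knockouts at 9 weeks, the import channel Tomm40 at 1.00 ± 0.21 and Timm23 at 0.53 ± 0.11. Tomm40 was at 1.31 ± 0.21 and Timm50 at 0.92 ± 0.16 in SPF knockouts at 12 weeks. The list means were 9.04 to 9.41 in conventional knockouts at 9 weeks, against 8.74 to 8.77 in wild types, and 9.14 to 9.55 in SPF knockouts at 12 weeks, against 8.80 to 8.99. Of the 14, 10 were lower in conventional than in SPF knockouts at 12 weeks. Over all genes, 13.6% were called lower in that comparison.

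Carriers and pores outside the Slc25 symbol (16 of 20 measured) had 3 called higher and 3 lower in conventional knockouts at 9 weeks, and 3 higher and 5 lower in SPF knockouts at 12 weeks. For this list and those that follow, the shares of all genes were 14.2% higher and 9.86% lower at 9 weeks. At 12 weeks they were 18.2% and 16.6%. The outer membrane pore Vdac3 was lower in both (-0.48 ± 0.12 and -0.83 ± 0.12) and Vdac2 higher in both (0.36 ± 0.09 and 0.37 ± 0.09). Mpc1, a subunit of the pyruvate carrier, was at -0.58 ± 0.15 and the carrier relative Mtch2 at -0.33 ± 0.12 in SPF knockouts at 12 weeks. Mitochondrial biogenesis factors (16 measured) had 2 called higher and 4 lower at 9 weeks, and 5 higher and 5 lower at 12 weeks. Esrrg, a nuclear receptor of oxidative metabolism, was at -1.92 ± 0.40 in conventional knockouts at 9 weeks. The fatty acid receptor Ppara was at -2.45 ± 0.50 in SPF knockouts at 12 weeks. Both of these were lower, while the calls of the list at 12 weeks were split evenly. Of 12 genes of arginine, ornithine and polyamine metabolism, 3 were called higher and 1 lower, and 4 higher and 3 lower, with Nos2, the inducible nitric oxide synthase, at 2.73 ± 0.45 and 3.01 ± 0.45.

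Markers of other cell types moved with these differences. To set beside their counts, 14.2% of all genes were called higher and 9.86% lower in conventional knockouts at 9 weeks. In SPF knockouts at 12 weeks these shares were 18.2% and 16.6%. In conventional knockouts at 9 weeks 14 of 15 macrophage, 5 of 10 neutrophil and 5 of 9 T cell markers were called higher, and 11 of 14 smooth muscle and 6 of 12 enteric neuron and glia markers lower. In SPF knockouts at 12 weeks these counts were 13, 8 and 6 higher, and 14 and 8 lower, with 1 neuron and glia marker higher. Goblet cell markers had 2 and 4 of 10 called lower, and colonocyte markers 2 higher and 3 lower, and 1 higher and 5 lower, of 15. Plasma cell markers had 1 and 2 of 9 called higher, and acinar pancreas markers 2 and 2 of 7 called lower. Those 2 were Cela1 and Clps both times, with means of 10.39 and 7.52 over all arrays. The dim Cela2a, Cpa1, Cpb1 and Ctrb1, with means of 3.25 to 3.94, were not called in either. The lower acinar calls thus rest on Cela1 and Clps. The acinar mean of single arrays was 4.63, 5.10 and 6.20 in SPF knockouts at 12 weeks, against 5.38 to 5.57 in wild types. The highest SPF array thus lay above all wild types of that age. Skeletal muscle markers had 0 of 10 called at 9 weeks, and 1 higher and 2 lower at 12 weeks, and adipocyte markers had 0 of 6 called in either. The smooth muscle mean was 10.50 to 10.53 in conventional knockouts at 9 weeks, against 11.20 to 11.31 in wild types, and 9.26 to 10.61 in SPF knockouts at 12 weeks, against 11.06 to 11.25. The macrophage mean was 7.80 to 8.42, against 6.55 to 6.95, and 7.51 to 8.76, against 6.59 to 6.71. The part of these cell types in the carrier differences was not tested.

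**Figure D5:**
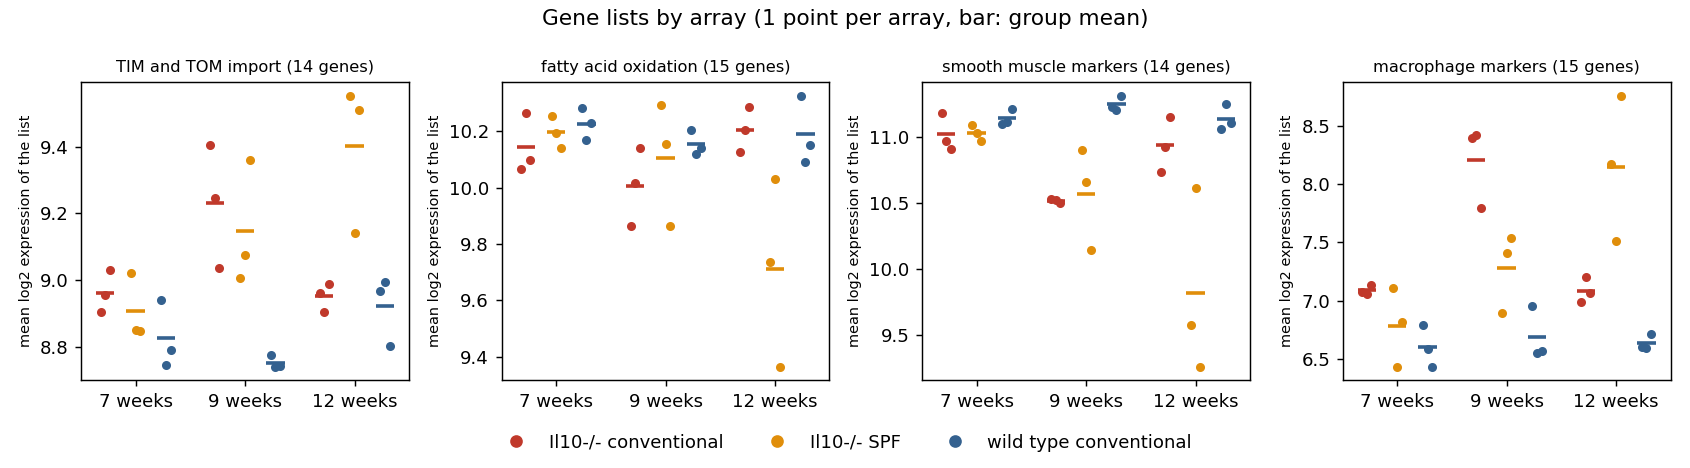
Mean log2 expression of 4 gene lists in each array (points) with the group mean (bar). TIM and TOM import genes and macrophage markers lie above wild types, and smooth muscle markers below, in conventional knockouts at 9 weeks (smooth muscle 10.50 to 10.53 against 11.20 to 11.31) and in SPF knockouts at 12 weeks, and fatty acid oxidation is lowest in SPF knockouts at 12 weeks (9.36 to 10.03 against 10.09 to 10.33).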

How the data were processed

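Expression was measured in 27 colon samples on 1 array each. Each deposited value is a probe set's log2 expression, normalized by the authors with affyPLM per the series' design text. The sources used here give no version, background step or summary method. A rat array is named there, while the probe sets fit the mouse annotation. The values were used as deposited.

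Of 45101 probe sets, 64 control probe sets, 932 with several symbols and 9160 with none were left out, and 34945 with 1 symbol gave 18193 genes. limma 3.58.1 (R 4.3.3) fitted 9 group means over 27 arrays (18 residual degrees of freedom) with eBayes, two-sided. The 18 contrasts were 9 between kinds, 6 between ages and 3 of changes. Named were up to 8 called members per direction in each comparison of kinds, Slc25a1, Slc25a3, Slc25a4, Slc25a5, Slc25a10, Slc25a20 and Slc25a37 in any, up to 3 called genes per other list, the uncoupling proteins and carrier relatives, and members whose probe sets disagree. Slc25a47 was named after its values were seen. Several motifs are given by name only. The 21 lists hold 291 genes, 264 of them measured. Members, lists and rules were chosen with earlier results of these data known. The number of arrays limits precision.

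Alternatives were a replicate block, quantile normalization again, centring arrays, dropping the 40% of genes lowest in mean, averaging each gene's probe sets, a trend with intensity, only the arrays compared, and leaving out each array. Fits were tested on simulated data. A pairing by replicate number was not seen, since 4 of 27 same-numbered pairs had a correlation of deviations over 0.1. With 3 arrays per group, these correlations cannot exclude a pairing or a shared batch. Figures used Python 3.11.15 and matplotlib 3.10.9.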

Additional observations from a re-analysis of the deposited data

How the results depend on the processing

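No single difference recomputed for the 23 members named with calls changed sign, over 1698 values, and 255 of these values lost the call. Most of the 1698 values, which recompute 50 called differences, could not change sign. Leaving out an array of another group, an intensity trend or dropping dim genes leaves a difference of group means as it was. Single probe sets of Slc25a17, Slc25a27, Slc25a32 and Slc25a42 did have the opposite sign, as given above. The replicate block, which uses numbers that the data do not bear out as pairs, gave 0 members between conventional knockouts and wild types at 12 weeks (1 without it), 7 for conventional against SPF knockouts at 12 weeks (11 without it) and 0 for conventional knockouts from 9 to 12 weeks (1 without it). With only the arrays of the groups compared, the counts were 0 between conventional knockouts and wild types at 12 weeks, 2 and 4 for SPF knockouts against wild types at 9 and 12 weeks, 0 for conventional against SPF knockouts at 12 weeks, 3 for conventional knockouts from 9 to 12 weeks and 2 for the change of their difference from 7 to 9 weeks. That setting leaves fewer samples to estimate the spread. The count for conventional knockouts from 9 to 12 weeks was also 2 with quantile normalization, centring or the mean of probe sets, and 3 without the genes of lowest mean, and the cause was not tested.

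Leaving out 1 array at a time gave 5 to 15 members between conventional knockouts and wild types at 9 weeks and 0 to 2 at 12 weeks, 0 to 6 and 11 to 20 for SPF knockouts against wild types at 9 and 12 weeks, and 2 to 20 for conventional against SPF knockouts at 12 weeks. For age it gave 0 to 6 and 0 to 5 in conventional knockouts (7 to 9 and 9 to 12 weeks), 0 to 11 in SPF knockouts and 0 to 1 in wild types (both 9 to 12 weeks). Changes of the difference gave 0 to 1, 0 to 1 and 0 to 5. Member counts from other settings and left-out arrays, here and above, stand without the shares of all genes in the same fits. Whether they moved apart from those shares is therefore not shown. Where a group was left with 2 arrays, the shared spread was assumed to hold for it. Signal over background limits the dim members.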
